A study of Gallus gallus with 6 samples.

Results

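Dividing cells switch on a shared set of genes, and 40 of these cell cycle and mitosis genes were examined in the livers of chickens with inherited fatty liver. The list took genes by name for their known roles and used no measured value as a criterion, although earlier results of these data were known when it was made, and 39 of the 40 had a value among the 20498 genes of the series. AURKA was not matched in the chicken gene table used for names and was not analysed here, and CCNB2 was matched through a synonym, since that table lists its gene as CCNB1. Liver RNA came from 6 F1 males of the dwarf Jingxing-Huang breed at 36 weeks of age. The fatty liver group held 3 birds of the paternal group. Both parents of this group were fed a high-fat diet, and the sires had fatty liver while the dams did not. The control group held 3 birds with non-fatty liver from parents on the basal diet, and all F1 birds were themselves raised on the basal diet. Fatty liver, paternal origin and the high-fat diet of the sires and dams always came together in these birds and cannot be told apart.

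A cell that starts to divide builds up cyclins, the regulatory partners of the cyclin-dependent kinases (CDKs). G1 cyclins with their CDKs release E2F transcription factors, which in turn activate the genes of DNA replication. Later, cyclin A, cyclin B and CDK1 bring the cell into mitosis, the spindle and the kinetochores separate the chromosomes, and a checkpoint holds division until all chromosomes are attached. Hepatocytes of an adult liver are mostly at rest, but they can re-enter the cycle after loss of tissue or damage, and resident and passing blood cells also divide there. The question was whether a proliferative signal was present in adult fatty liver.

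Most of the members were higher in fatty liver, but at low levels, and few of the differences passed the test across all genes. The mean FPKM of fatty liver (fragments scaled to the length of the gene and to the size of the library) was above that of control in 35 of the 39 members, against 57.8% of all genes above 0 FPKM. Genes at 0 in every control bird had no ratio of fatty liver to control and were not counted as above it. The 57.8%, here and below, is therefore a lower bound. The median ratio of fatty liver to control was 1.69 over the members, against 1.08 over all genes with a ratio. In 16 of the 39 members (41.0%) all birds with fatty liver lay above all control birds, against 13.9% of all 17185 genes above 0 FPKM. No member had all birds with fatty liver below the control birds, against 4.15% of those genes. Of the 22 members that were tested, 2 (CENPA and SKP2) rose at an adjusted p under 0.05 in limma, and none fell. Of all tested genes 0.845% were called higher. Each of the 2 calls held in only 4 of the 16 alternative fits. By role, the median ratio was highest for DNA replication (2.21) and lowest for the genes that control entry into the cycle (1.05), whose ratios ran between 0.36 and 3.1.

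**Figure D1:**
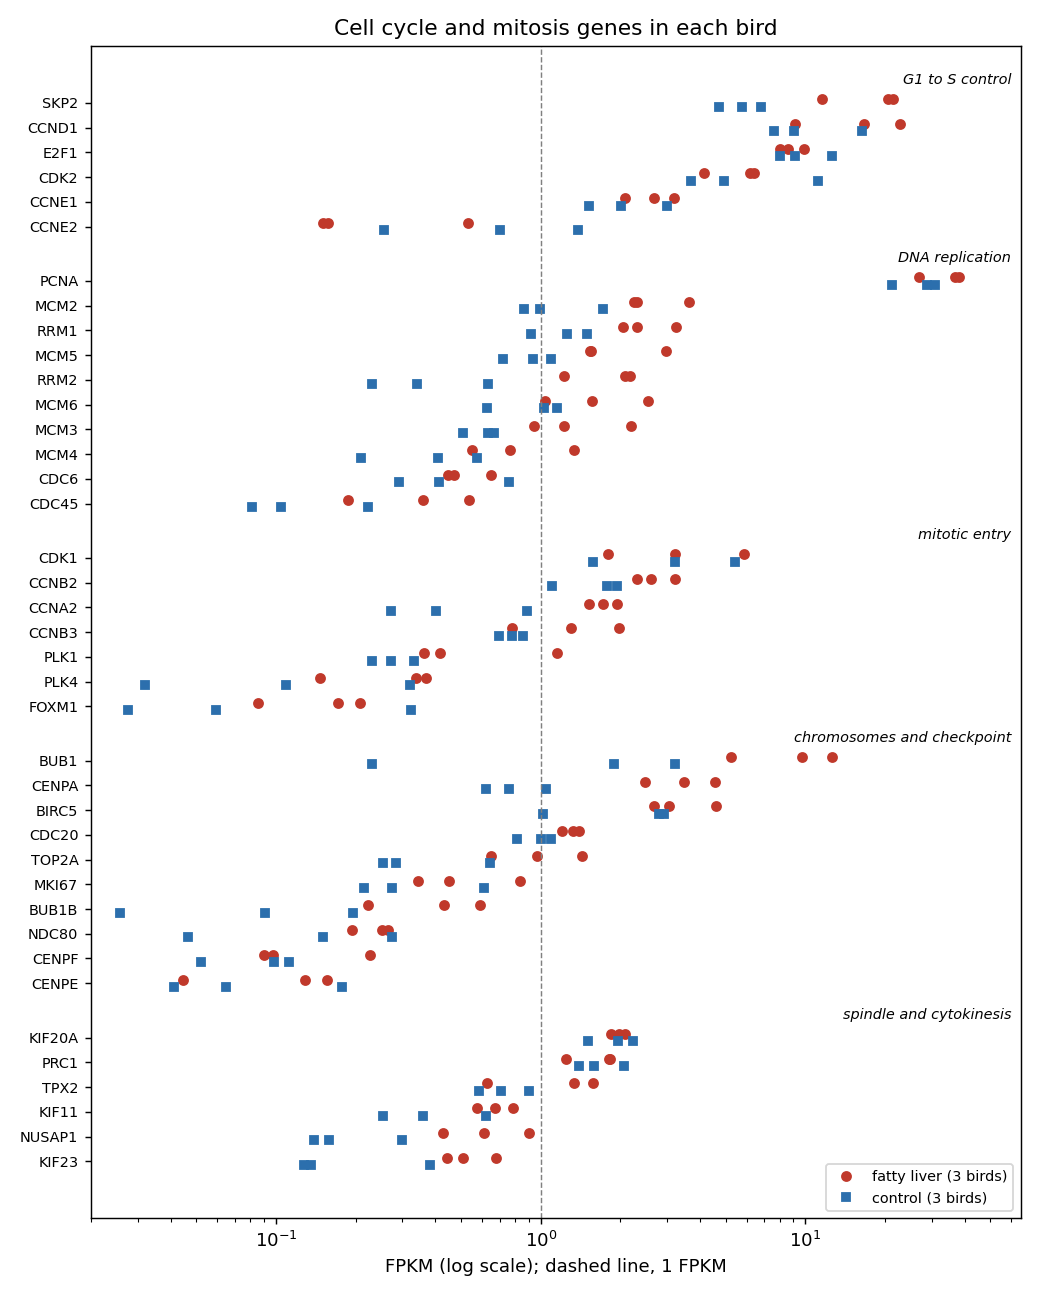
FPKM (log axis) of the 39 members in each of the 3 birds with fatty liver (red circles) and the 3 control birds (blue squares), grouped by role. The circles lie to the right of the squares in 16 members, 17 members have a mean under 1 FPKM (dashed line), and CDK1, E2F1, PRC1 and KIF20A overlap closely.

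Many of the members were at low levels, and some had values near the low end of what these libraries could measure. The libraries held between 8860634 and 10403637 fragments, worked out from the FPKM, and a member had between 1 and 599 fragments in a bird. The median of the members' mean levels was 1.11 FPKM, against 2.61 FPKM over all genes above 0. A floor of 3 fragments was used, and 13 values in 8 members were at or under it, 2 in fatty liver and 11 in control. None of the members' values was 0. PCNA, SKP2, CCND1, E2F1, CDK2 and BUB1 were the 6 members with a mean over 5 FPKM. MKI67, the gene of the proliferation antigen Ki-67, was at 0.45, 0.345 and 0.835 FPKM in fatty liver and 0.273, 0.214 and 0.613 FPKM in control. These values came from 38, 28 and 71 fragments in fatty liver and from 24, 16 and 50 fragments in control, and the groups overlapped.

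Differences were tested with limma on log2(FPKM + 1) over the 10886 genes whose mean over the 6 birds reached 1 FPKM, with Benjamini-Hochberg adjustment, and log2 fold changes below are from that fit unless stated. Adding 1 shrinks the fold changes of weakly expressed genes. Of the 39 members 22 passed the filter and 17 did not. CENPA, CCNA2, CCNB3, CDC20, MCM3, MCM5, MCM6 and RRM2 had a control mean under 1 FPKM and passed only through their level in fatty liver. The counts and medians over the 22 members include these genes. Among the 22, the 2 calls compare with 0.845% of all tested genes called higher. An unadjusted p under 0.05 was found in 10 members, all 10 higher in fatty liver, against 12.6% of all tested genes in that direction. The list was made with earlier results of these data known, so these shares are a description and not a test of the list. The median log2 fold change was 0.5 over the 22 members and 0.12 over all tested genes. Since the median of all tested genes was above 0, each library was also rescaled so that the genes other than the 50 most abundant had an equal total. The median was then 0.37 over the members and -0.01 over all tested genes, 14 of the 39 members (35.9%) still did not overlap and were higher, against 8.23% of all genes, and no member was called. An exact permutation test of 3 birds against 3 cannot give a two-sided p below 0.1 for any member. Members under the filter were not in this fit and are described by their values, and fits that include them are given further below.

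Among the genes that control entry into the cycle, SKP2 stood apart. SKP2 is the subunit of a ubiquitin ligase that recognises the CDK inhibitor CDKN1B and marks it for degradation. It was at 11.6, 21.4 and 20.5 FPKM in fatty liver and 6.78, 5.75 and 4.7 FPKM in control, with no overlap. On the log2 scale SKP2 rose by 1.45 ± 0.25 (standard error, n = 3 birds each), with an adjusted p of 0.041 in limma, and the ratio of the group means was 3.1. The call was lost after rescaling (adjusted p = 0.072) and without the filter on low values (adjusted p = 0.11), and it held in 4 of the 16 alternatives. It was also lost without fatty liver replicates 2 or 3 or without any single control bird, with adjusted p up to 0.14 in limma.

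No other gene of this step was called in limma. CCND1, the G1 cyclin that responds to growth signals, was at 22.7, 9.14 and 16.6 FPKM in fatty liver and 7.61, 9.03 and 16.3 FPKM in control. Its groups overlapped, and its log2 fold change was 0.5 (standard error 0.36, adjusted p = 0.53 in limma). CCNE1, a partner of CDK2 at the start of replication, was at 2.08, 2.68 and 3.19 FPKM in fatty liver and 1.52, 3.01 and 2.01 FPKM in control. CDK2 itself was at 4.13, 6.37 and 6.2 FPKM in fatty liver and 4.93, 11.2 and 3.69 FPKM in control, and the highest of all 6 birds was a control bird. E2F1, a transcription factor that activates many replication genes, was at 9.88, 8 and 8.57 FPKM in fatty liver and 9.15, 12.6 and 8.02 FPKM in control (log2 fold change -0.14, standard error 0.19, adjusted p = 0.78 in limma). The levels of E2F1 overlapped while many genes of replication lay higher. CCNE2, the other cyclin E gene, was at 0.53, 0.157 and 0.15 FPKM in fatty liver and 1.38, 0.256 and 0.704 FPKM in control, with only 14, 4 and 4 fragments against 38, 6 and 18. With a ratio of 0.36 it was the lowest of the 39 members. CCNE2 overlaps INTS8 and TP53INP1 in the gene table. TP53INP1 was at 18.6, 30 and 18.2 FPKM in fatty liver and 55.6, 63.7 and 17.1 FPKM in control, and its part in the CCNE2 values was not tested.

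The 10 replication members all had a ratio above 1, against 57.8% of all genes above 0 FPKM, with a median of 2.21. RRM2 and RRM1 are the small and the large subunit of ribonucleotide reductase, the enzyme that makes deoxynucleotides, and RRM2 is the subunit that is produced mainly during DNA synthesis. RRM2 was at 2.09, 1.22 and 2.17 FPKM in fatty liver and 0.342, 0.23 and 0.631 FPKM in control, a ratio of 4.55 on 41, 23 and 43 fragments against 7, 4 and 12. Its groups were well separated, but the log2 fold change of 1 (standard error 0.22) had an adjusted p of 0.078 in limma. RRM1 was at 3.25, 2.32 and 2.04 FPKM in fatty liver and 0.919, 1.5 and 1.26 FPKM in control, also without overlap (log2 fold change 0.66, standard error 0.2, adjusted p = 0.16 in limma).

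The MCM proteins form the ring that opens DNA ahead of the replication fork. The FPKM of MCM2, MCM3, MCM4, MCM5 and MCM6 summed to 7.69, 6.59 and 12.1 in fatty liver and 3.87, 4.81 and 3.46 in control, so the sum was higher in each bird with fatty liver than in any control bird. MCM2 was at 2.31, 2.25 and 3.62 FPKM in fatty liver and 0.994, 1.72 and 0.865 FPKM in control, MCM3 at 0.941, 1.22 and 2.19 FPKM in fatty liver and 0.508, 0.63 and 0.668 FPKM in control. For MCM5 the values were 1.55, 1.53 and 2.97 FPKM in fatty liver and 0.932, 1.09 and 0.722 FPKM in control. These 3 genes did not overlap between the groups. MCM4 (ratio 2.21) and MCM6 (ratio 1.83) overlapped in their lowest bird with fatty liver and their highest control bird. MCM6 was at 1.56, 1.04 and 2.54 FPKM in fatty liver and 1.03, 1.15 and 0.625 FPKM in control, and both genes overlap a lncRNA gene in the gene table. The adjusted p in limma was between 0.15 for MCM2 and 0.4 for MCM6, and MCM4 was under the filter.

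The remaining replication members overlapped between the groups. PCNA, the sliding clamp of the DNA polymerases, which also serves DNA repair, had the highest level of all members, at 36.9, 26.8 and 38.1 FPKM in fatty liver and 21.2, 30.8 and 28.7 FPKM in control. The groups overlapped, and the log2 fold change was 0.33 (standard error 0.21, adjusted p = 0.48 in limma). CDC45, which joins the MCM ring when the fork fires, was at 0.36, 0.187 and 0.536 FPKM in fatty liver and 0.104, 0.0812 and 0.223 FPKM in control, on 10, 5 and 15 fragments against 3, 2 and 6. CDC6, which loads the ring onto DNA, had a ratio of 1.07, and its highest value was in a control bird.

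**Figure D2:**
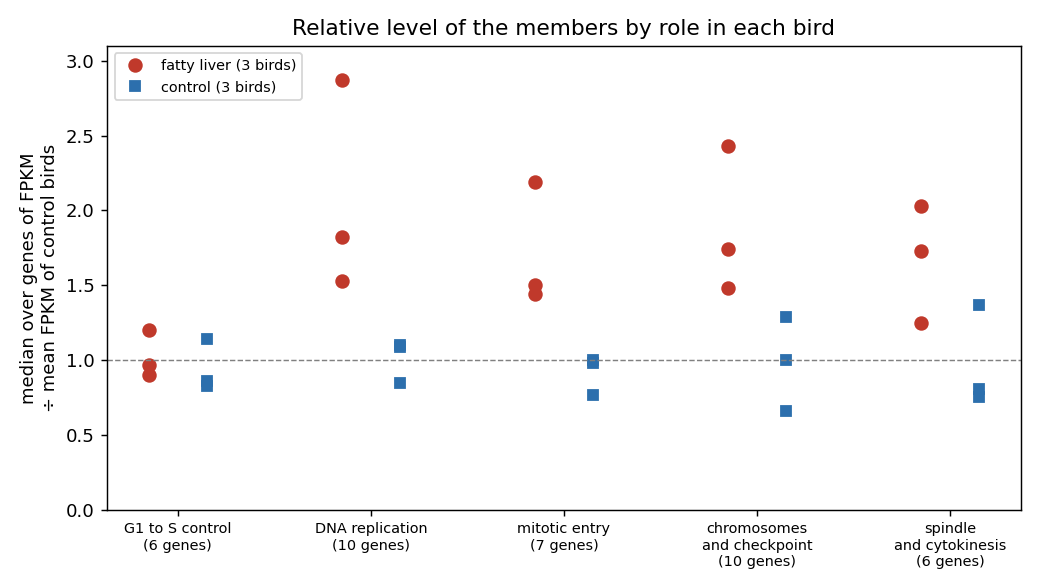
Median over the genes of each role of the FPKM divided by the mean FPKM of the control birds, for the 3 birds with fatty liver (circles) and the 3 control birds (squares). The replication genes lie between 1.53 and 2.87 in fatty liver and between 0.85 and 1.1 in control, whereas the genes of G1 to S control lie between 0.9 and 1.2 in fatty liver and between 0.83 and 1.14 in control.

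The 7 members of mitotic entry all had a ratio above 1, with a median of 1.74, and 3 of them were higher without overlap. Among all genes above 0 FPKM, 57.8% had a ratio above 1 and 13.9% were higher without overlap. For each bird the median of their levels relative to the control mean was 1.44, 1.5 and 2.19 in fatty liver and 0.77, 0.98 and 1 in control. None of the 4 that were tested was called in limma. CCNA2, the cyclin A of DNA synthesis and G2, was at 1.94, 1.52 and 1.72 FPKM in fatty liver and 0.403, 0.886 and 0.271 FPKM in control, a ratio of 3.32 (log2 fold change 0.86, standard error 0.21, adjusted p = 0.098 in limma). CCNB2, a mitotic cyclin, was at 2.32, 2.61 and 3.22 FPKM in fatty liver and 1.78, 1.94 and 1.1 FPKM in control. It did not overlap between the groups either, but it overlaps MPHOSPH10 in the gene table, a gene at 4.87, 6.18 and 5.81 FPKM in fatty liver and 3.25, 4.73 and 5.78 FPKM in control. CDK1, the kinase that both of these cyclins activate, was at 1.8, 3.22 and 5.84 FPKM in fatty liver and 1.57, 3.23 and 5.41 FPKM in control. The CDK1 values of the groups covered nearly the same range, and the log2 fold change was 0.07 (standard error 0.4, adjusted p = 0.95 in limma) and -0.05 after rescaling. PLK1, a kinase of mitotic entry and exit, was at 0.361, 0.416 and 1.15 FPKM in fatty liver and 0.231, 0.271 and 0.331 FPKM in control, without overlap before rescaling and with overlap after it. CCNB3, PLK4, which drives centriole duplication, and FOXM1, a transcription factor of mitotic genes, overlapped between the groups with ratios of 1.74, 1.84 and 1.14. The FOXM1 values rested on 6, 7 and 3 fragments in fatty liver and 1, 10 and 2 in control.

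On the chromosomes, CENPA was the member with the lowest p. CENPA is the histone variant that marks the centromere, and new CENPA is needed when cells divide. It was at 3.48, 2.47 and 4.54 FPKM in fatty liver and 1.05, 0.619 and 0.756 FPKM in control. On the log2 scale CENPA rose by 1.29 ± 0.22 (standard error, n = 3 birds each; adjusted p = 0.039 in limma), on 19, 13 and 25 fragments in fatty liver and 6, 3 and 4 in control, so 1 control bird was at the floor. The call was lost after rescaling (adjusted p = 0.06), without the filter (adjusted p = 0.1) and in limma's voom on the fragments (adjusted p = 0.13), and it held in 4 of the 16 alternatives. It was lost whichever single bird was left out, with adjusted p between 0.062 and 0.14 in limma.

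The checkpoint kinase genes had large ratios. BUB1 was at 5.22, 12.6 and 9.74 FPKM in fatty liver and 1.89, 3.22 and 0.231 FPKM in control. Its ratio of 5.16 was the highest of the members, but the control birds also differed widely from each other (128 fragments in 1 bird and 10 in another), and the adjusted p was 0.09 in limma. BUB1 also overlaps a lncRNA gene, and its level was far above that of BUB1B, its partner in the checkpoint. BUB1B was at 0.43, 0.223 and 0.587 FPKM in fatty liver and 0.0258, 0.091 and 0.195 FPKM in control, a ratio of 3.98 on 16, 8 and 22 fragments against 1, 3 and 7. Neither gene overlapped between the groups.

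TOP2A, the topoisomerase that untangles chromosomes and a common marker of dividing cells, was at 0.97, 0.647 and 1.43 FPKM in fatty liver and 0.283, 0.254 and 0.645 FPKM in control. Its groups touched, with the lowest bird with fatty liver level with the highest control bird, and they overlapped after rescaling. CDC20, the activator of the ubiquitin ligase that ends mitosis, was at 1.39, 1.32 and 1.2 FPKM in fatty liver and 0.814, 1.09 and 1 FPKM in control. CDC20 overlaps ELOVL1, a fatty acid elongase gene at 67.8, 48.1 and 55.2 FPKM in fatty liver and 17.9, 33.7 and 35.7 FPKM in control, and the part of ELOVL1 reads in the CDC20 values was not tested. BIRC5, which encodes survivin of the chromosomal passenger complex, was at 4.6, 2.69 and 3.04 FPKM in fatty liver and 1.02, 2.79 and 2.92 FPKM in control, so 2 of the 3 control birds were within the range of fatty liver. The kinetochore genes CENPE, CENPF and NDC80 had ratios of 1.16, 1.58 and 1.51, and the groups overlapped in each. Their levels were between 0.0412 FPKM (CENPE) and 0.273 FPKM (NDC80), both in control birds.

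Of the 6 spindle and cytokinesis members, 5 had a ratio above 1 and 2 were higher without overlap between the groups. Over all genes above 0 FPKM these shares were 57.8% and 13.9%. NUSAP1, which bundles spindle microtubules, was at 0.905, 0.427 and 0.612 FPKM in fatty liver and 0.158, 0.139 and 0.298 FPKM in control. KIF23, a motor of the central spindle needed for cytokinesis, was at 0.51, 0.441 and 0.675 FPKM in fatty liver and 0.136, 0.128 and 0.381 FPKM in control, and neither gene overlapped between the groups. TPX2 and KIF11, which build the bipolar spindle, overlapped with ratios of 1.61 and 1.65. PRC1, the partner of KIF23 at the midzone, was at 1.83, 1.25 and 1.81 FPKM in fatty liver and 1.39, 1.59 and 2.07 FPKM in control. KIF20A, another cytokinesis motor, was at 1.85, 2.08 and 1.97 FPKM in fatty liver and 1.51, 1.96 and 2.24 FPKM in control (log2 fold change 0.04, standard error 0.17, adjusted p = 0.94 in limma, and -0.07 after rescaling). Both genes overlap a neighbour of higher level. RCCD1 beside PRC1 was at 10.9, 8.83 and 8.83 FPKM in fatty liver and 7.41, 11.7 and 9.86 FPKM in control, and SFXN1 beside KIF20A was at 62.2, 56.1 and 48.5 FPKM in fatty liver and 58.6, 63.9 and 66.6 FPKM in control. The kit does not mark the strand, so reads from sequence that a gene shares with a gene on the other strand cannot be told apart. The spans of 10 of the 39 members overlap that of another gene in the table. Whether these genes share exons, and on which strands they lie, was not examined. Of the 16 members without overlap between the groups, 3 are among these 10.

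**Figure D3:**
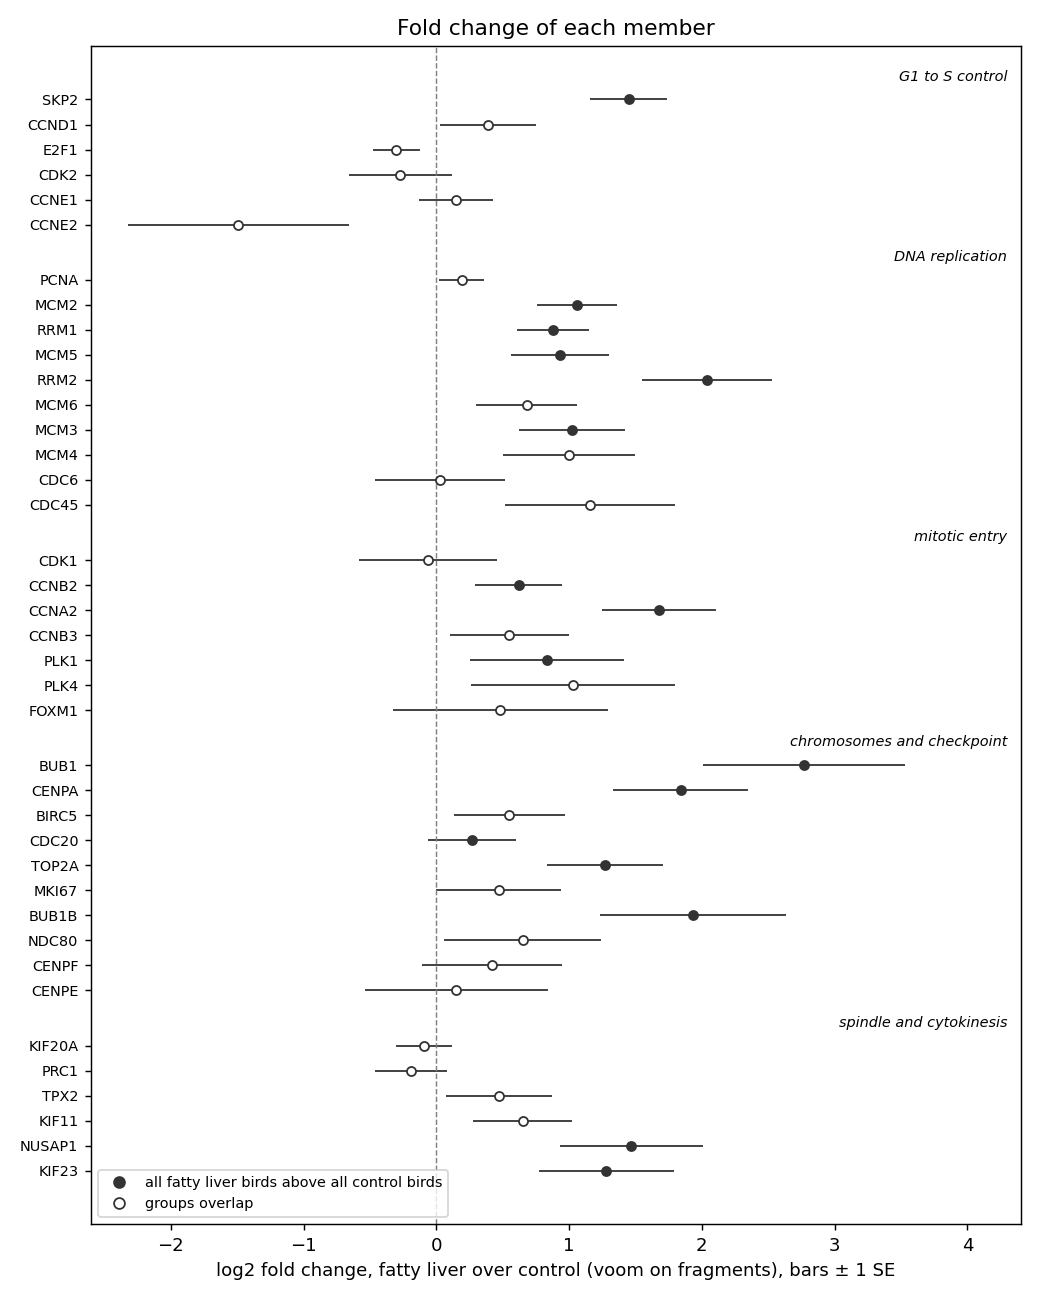
Log2 fold change, fatty liver over control, of the 39 members from limma's voom on the fragments (added after seeing the data), with bars of 1 standard error. Filled points are the 16 members in which all birds with fatty liver lie above all control birds. RRM2 (2.04), BUB1 (2.77), BUB1B (1.93) and CENPA (1.84) lie farthest to the right and CCNE2 (-1.49) farthest to the left.

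Because 17 members were under the filter, limma's voom was also run on the fragments of all 14508 genes with at least 10 fragments over the 6 libraries. The median log2 fold change of all 39 members was then 0.65, that of all genes was 0, and 13 members had an unadjusted p under 0.05, all higher, against 6.97% of all genes with such a p in that direction. None of the 39 was called, and SKP2 had the lowest adjusted p (0.075). In the fit on log2(FPKM + 1) without a filter, 15 members had an unadjusted p under 0.05, all higher, against 9.6% of all genes, and none was called, with a lowest adjusted p of 0.1 for CENPA.

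The birds differed within each group. For each bird the FPKM of each member was divided by the mean of the control birds, and the median over the members was 1.67, 1.37 and 2.15 in fatty liver replicates 1, 2 and 3 and 0.8, 0.98 and 1.18 in control replicates 1, 2 and 3. The members together took 2560, 2586 and 3270 fragments in fatty liver and 1437, 1572 and 1556 in control. Fatty liver replicate 3 was the highest of its group in 22 members, and control replicate 3 in 21. These 2 birds also had the highest PTPRC, LCP1 and summed T cell markers of their groups. The same held for the summed B cell, endothelial, stellate cell and bile duct markers. Of the single endothelial markers only PLVAP, and of the stellate cell markers only DCN and PDGFRB, were highest in both of these birds. The summed thrombocyte markers were highest in replicate 2 of both groups (8.19 FPKM in fatty liver and 9.06 FPKM in control). The summed erythroid markers were highest in fatty liver replicate 2 and control replicate 3. The summed macrophage markers were highest in fatty liver replicate 3, but in control they were highest in replicate 2 (66.7 FPKM, against 39.6 in control replicate 3). PTPRC, the common leukocyte antigen, was at 2.66, 4.49 and 8.15 FPKM in fatty liver and 3.96, 4.9 and 7.63 FPKM in control, and LCP1, another leukocyte gene, at 5.86, 13.6 and 26.2 FPKM in fatty liver and 8.27, 14.3 and 17.6 FPKM in control. Both genes overlapped between the groups. The 5 T cell markers summed to between 18.7 and 44.1 FPKM in fatty liver and between 35.5 and 63.8 FPKM in control. All 5 had the lower mean in fatty liver. Of these 5, 2 were lower at an unadjusted p under 0.05 in limma, against 3.69% of all tested genes. The 4 macrophage markers summed to between 8.72 and 105 FPKM in fatty liver and between 20.3 and 66.7 FPKM in control. None of the leukocyte, T cell, B cell or macrophage markers was at 0 in any bird. The 7 erythroid markers summed to between 940 and 1910 FPKM in fatty liver and between 1220 and 1330 FPKM in control, and HBBR among them was at 0 in 5 of the 6 birds. The part of blood cells in the members' values was not tested, and more dividing cells and more RNA per cell cannot be told apart in whole tissue. ALB, the hepatocyte marker albumin, was at 67900, 74500 and 62300 FPKM in fatty liver and 107000, 90300 and 92800 FPKM in control. The 7 hepatocyte markers summed to between 125000 and 135000 FPKM in fatty liver and between 121000 and 152000 FPKM in control. Without overlap between the groups 1 of the 7 (APOA1) was higher in fatty liver and 3 (ALB, FGA and FGG) were lower. Over all genes above 0 FPKM these shares were 13.9% and 4.15%. None of the 7 was called in limma.

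Genes of the same processes outside the member list were taken from lists written by hand. Their counts stand against 57.8% of all genes above 0 FPKM with a ratio above 1, 13.9% without overlap and higher, and, of the tested genes, 12.6% higher and 3.69% lower at an unadjusted p under 0.05. Of 43 further replication factors with a value, 40 had a ratio above 1, with a median of 1.58, and 21 did not overlap between the groups and were higher. Of the 30 of these factors that were tested none was called, and 11 had an unadjusted p under 0.05 in limma, all higher. RFC5, a subunit of the loader of PCNA, was at 18, 11.5 and 24.8 FPKM in fatty liver and 8.13, 7.32 and 7.33 FPKM in control (log2 fold change 1.09, adjusted p = 0.09 in limma). TK1, the thymidine kinase of S phase, was at 9.27, 3.65 and 5.44 FPKM in fatty liver and 1.89, 2.85 and 1.45 FPKM in control, and GMNN, which keeps origins from firing again, had a ratio of 2.22 (adjusted p = 0.12 and 0.11 in limma).

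Of 47 further spindle and kinetochore genes with a value, 39 had a ratio above 1 with a median of 1.73, and 15 did not overlap and were higher. None of the 19 tested was called in limma, and 5 had an unadjusted p under 0.05, all higher. MAD2L1, a checkpoint protein, was at 2.87, 3.06 and 3.9 FPKM in fatty liver and 1.38, 1.36 and 1.41 FPKM in control (log2 fold change 0.84, adjusted p = 0.062 in limma). SGO1, which guards the cohesion of sister centromeres, and CENPU, a kinetochore protein, had ratios of 2.26 and 2.69 with adjusted p of 0.12 and 0.13 in limma. The 12 genes of condensin and cohesin, the rings that shape and hold chromosomes, had a median ratio of 1.25. In this list SMC2 of condensin lay at 1.34, 0.897 and 2.31 FPKM in fatty liver and 0.646, 0.542 and 0.819 FPKM in control, and STAG2 of cohesin at 12.5, 14.2 and 13.3 FPKM in fatty liver and 16.3, 18.7 and 20.9 FPKM in control. None of its 8 tested genes was called in limma. At an unadjusted p under 0.05, 1 was higher (SMC2) and 1 lower (STAG2), against 12.6% and 3.69% of all tested genes. The SMC2 values of the groups overlapped after rescaling.

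The brakes of the cycle, 20 genes with a value, had a median ratio of 1.08. Of the 17 tested 1 was called higher, against 0.845% of all tested genes. CDKN2A, a tumour suppressor locus that in mammals restrains CDK activity and stabilises p53, rose to 9.33, 12.1 and 14.9 FPKM in fatty liver, against 3.85, 4 and 5.44 FPKM in control (log2 fold change 1.26, standard error 0.21, adjusted p = 0.037 in limma), and the call was lost after rescaling (adjusted p = 0.058). CDKN2B, an inhibitor of the CDK partners of cyclin D, was at 16.7, 20.7 and 21.6 FPKM in fatty liver and 2.68, 8.54 and 8.65 FPKM in control (adjusted p = 0.089 in limma). GADD45B, a stress-induced gene, was at 102, 234 and 178 FPKM in fatty liver and 404, 491 and 474 FPKM in control (log2 fold change -1.48, adjusted p = 0.062 in limma). The 3 genes did not overlap between the groups. Of the 17 tested brakes 2 were higher and 1 lower at an unadjusted p under 0.05, against 12.6% and 3.69% of all tested genes. Of the 20 brakes 2 were higher and 1 lower without overlap, against 13.9% and 4.15% of all genes above 0 FPKM. The list was thus near the shares of all genes in both directions.

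The 27 drivers of the cycle had a median ratio of 1.18, and none of the 19 tested was called in limma. At an unadjusted p under 0.05, 5 were higher and 1 lower, against 12.6% and 3.69% of all tested genes. Without overlap between the groups 7 of the 27 were higher and 1 lower, against 13.9% and 4.15% of all genes above 0 FPKM. CCNG2, an atypical cyclin known for growth arrest rather than for driving the cycle, was at 54.3, 40.2 and 32.3 FPKM in fatty liver and 19.5, 20.2 and 16.8 FPKM in control (log2 fold change 1.1, adjusted p = 0.059 in limma). SKP1, the adaptor that holds SKP2 in its ligase, was at 52.7, 55.8 and 47.6 FPKM in fatty liver and 80.8, 88.9 and 68.8 FPKM in control (adjusted p = 0.13 in limma), the opposite direction to SKP2. MNAT1, which assembles the kinase that activates CDKs, had a ratio of 1.47 (adjusted p = 0.15 in limma). Among 13 growth signal genes with a value, EGF had no fragments in control and so no ratio. The median ratio of the others was 1.07. EGFR, the receptor of epidermal growth factor, was at 18.2, 9.36 and 11 FPKM in fatty liver and 28.5, 23.4 and 28.5 FPKM in control, and its ligand HBEGF at 42.7, 30.5 and 34.8 FPKM in fatty liver and 7.19, 9.13 and 26.2 FPKM in control. Their adjusted p were 0.089 and 0.13 in limma, and none of the 12 tested genes was called, with 1 higher (HBEGF) and 1 lower (EGFR) at an unadjusted p under 0.05, near the share of all tested genes.

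**Figure D4:**
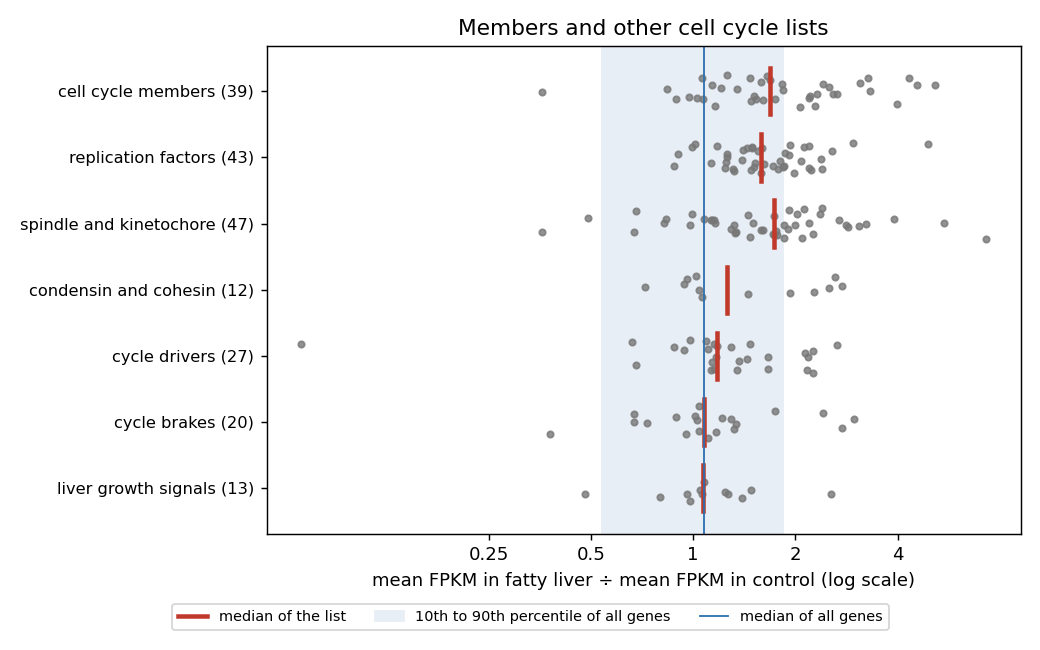
Ratio of the mean FPKM in fatty liver to that in control (log axis) of each gene with a ratio in the member list and in the other cell cycle lists. Also shown are the median of each list (red bar), the median of all genes with a ratio (1.08, blue line) and their 10th to 90th percentile (0.54 to 1.84, shaded). The medians of the members (1.69), the replication factors (1.58) and the spindle and kinetochore genes (1.73) lie right of the median of all genes, and those of the brakes (1.08) and growth signals (1.07) lie on it.

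Among the cell type markers, SOX9, a transcription factor of bile duct and progenitor cells, rose to 6.28, 7.16 and 11.9 FPKM in fatty liver, against 1.76, 1.72 and 3.03 FPKM in control (log2 fold change 1.55, standard error 0.26, adjusted p = 0.038 in limma), and the call was lost after rescaling (adjusted p = 0.059). Of the other bile duct markers KRT7, EPCAM and SPP1 were tested and not called, and CFTR was under the filter. EPCAM was at 31.9, 30.9 and 54.1 FPKM in fatty liver and 40.8, 50.2 and 90.9 FPKM in control, and KRT7 at 1.68, 2.53 and 2.49 FPKM in fatty liver and 1.84, 3.11 and 3.51 FPKM in control, so both had the lower mean in fatty liver. SPP1 was at 10.9, 21.8 and 39.4 FPKM in fatty liver and 10.8, 17.6 and 11.9 FPKM in control. CFTR was at 0.12, 0.104 and 0.218 FPKM in fatty liver and 0.0192, 0.135 and 0.124 FPKM in control. SPP1 and CFTR had the higher mean in fatty liver, with overlap between the groups. The 5 markers together summed to between 50.8 and 108 FPKM in fatty liver and between 55.2 and 109 FPKM in control.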

How the data were processed

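Liver mRNA of 6 birds was sequenced, with 1 library per bird. Per the paper's methods, reads were cleaned by the authors (SeqPrep, Sickle) and aligned to the Gallus_gallus_5.0 genome, and the deposited values are FPKM per gene, with no further scaling between libraries stated. The aligner and the counter are not given in the sources used here. Symbols came by NCBI Gene ID from a RefSeq table of the GRCg7b assembly (16332 of 20498 IDs), used for names and neighbours only. Promoter motifs were not analysed here.

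Whole fragments were worked out from the FPKM, as the smallest counts in which all 6 libraries came within 0.002 of a whole number. These counts could then be multiplied by a common factor, where that made the implied gene length whole. They gave back 100% of the values, but with gene lengths taken from the same values, so this is not a separate check. On simulated data 98.4% of 4000 genes came back exactly. The fragments served for depth and for voom.

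limma 3.58.1 in R 4.3.3 was fitted on log2(FPKM + 1) of 10886 genes (mean of at least 1 FPKM), with a mean-variance trend, no covariate and Benjamini-Hochberg adjustment at 0.05. On simulated data at the depths of these libraries, 99% of 200 genes changed 4-fold among 10886 were called, with 17 false calls. The simulation gave every gene the same preset spread between birds, not the spread of these birds. It therefore does not give the share of 4-fold changes found in the data, where RRM2 (ratio 4.55) and BUB1 (ratio 5.16) were not called. Alternatives were another pseudocount (0.1), no filter, 3 scalings, other eBayes settings, leaving out each library, a replicate block, and voom. The members and lists were chosen with earlier results of these data known. Named genes were all members, and in the other lists those called and up to 3 with the lowest p among those under 0.05. Genes that overlap a member and the leukocyte and hepatocyte genes printed by bird were added after their values were seen. The same holds for the bile duct genes other than SOX9 and for the single erythroid, endothelial and stellate cell markers named. Replicates were separate birds.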

Additional observations from a re-analysis of the deposited data

How the results depend on the processing

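The filter on low values left out the 17 of the 39 members that lie under 1 FPKM. Few fragments lie behind some of them, such as FOXM1 (29 over the 6 libraries). The filter did not follow fragments alone, since TOP2A (241 fragments) was left out and CENPA (70 fragments) was tested. Of all genes, 124 were called, 30 without the filter on low values, 79 with libraries scaled to the same median, and between 22 and 119 with a bird left out. The share of higher calls moved with scaling, from 92 of 124 to 44 of 84 after rescaling. Of the members 2 were called. This became 0 without the filter, with the same median, with quantile normalization, after rescaling and with voom (with or without the filter), 1 (CENPA) with the replicate block, and between 0 and 1 with a bird left out. SKP2 had an adjusted p of 0.053 with the replicate block in limma. Same-numbered birds are different animals, and their deviations correlated by 0.02, 0.04 and 0.05. The median log2 fold change of the members minus that of all genes was 0.37, and 0.66 with voom without the filter. Over the 16 alternatives 5 of the 22 tested members, none of them called, turned direction. CDK1 (0.07) was -0.03 with the same median, -0.04 with quantile normalization, -0.05 after rescaling, -0.06 with voom and between -0.27 and 0.39 with a bird left out. KIF20A (0.04) was -0.06, -0.08, -0.07 and -0.09 under the same settings and between -0.06 and 0.12 with a bird left out. With a bird left out, CDK2 was between -0.39 and 0.3, PRC1 between -0.11 and 0.08 and E2F1 between -0.27 and 0.03. Why they moved was not tested.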
